A study of Mus musculus with 241 samples.

Results

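The comparison described here sets DN2a thymocytes that carry a Bcl11b reporter signal (Bcl11b+) against DN2a thymocytes that do not (Bcl11b-). DN2a cells are T-cell precursors at the stage that follows the early T-cell progenitor (ETP) in the mouse thymus. The members were chosen by their sorting gate and by the numbering of their libraries, and not by any measured value. They are 6 of the 12 bulk RNA-seq libraries, 3 of each group, in a series of 241 samples that also holds 2 droplet (10x) libraries and single cells captured on the C1 chip. All 6 libraries came from primary thymus cells of C57BL/6 mice with the genotype Bcl11byfp/yfp, in which both copies of Bcl11b carry a yellow fluorescent protein (YFP) reporter, and no treatment was given. The cells were sorted as negative for lineage markers and the dead-cell dye 7AAD and positive for CD44, Kit and CD25, and then divided into YFP+ (Bcl11b+) and YFP- (Bcl11b-). The ages and numbers of the mice, and whether any animals were pooled, are not given in the sources used here, so the p-values below cover only differences among libraries, whose source may be technical.

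The libraries form 3 series of a Bcl11b- and a Bcl11b+ library each. The first and second series were made with NEBNext Ultra and the third, called the SMART-Seq series, from amplified cDNA with SMART-Seq v4. Across genes, DN2a libraries of the same kit correlated at 0.953 to 0.988 (Spearman) and those of different kits at only 0.804 to 0.844. Every difference was therefore taken within a series. Recovered reads on gene models numbered 26146496 to 38537039 per DN2a library. Levels are FPKM (reads scaled by the length of the gene model and the size of the library). Differences are Bcl11b+ minus Bcl11b- on the log2(FPKM + 1) scale, a scale that understates the change of genes at low FPKM, and each is given with its standard error (SE). Where 3 levels are listed for a group, they are in the order first, second and SMART-Seq series.

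T-cell precursors enter the thymus with the capacity to become other blood cells, and they lose it in steps. Notch signals, received from the thymic stroma, turn on Tcf7 and Gata3, and during the DN2a stage single cells switch on Bcl11b, which encodes a zinc finger transcription factor needed for T-lineage commitment. Genes of the stem and progenitor programme, among them Spi1 (encoding PU.1), Bcl11a, Lmo2 and Mef2c, are known to be shut down over the same period, and genes for the pre-T-cell receptor and its signalling chain are turned on.

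Of 12112 genes tested, 682 changed at an adjusted p under 0.05 (limma, paired by series), which is 5.63% of all genes tested. Expression rose in Bcl11b+ cells for 312 genes (2.58%) and fell for 370 (3.05%). All 682 had the same sign in all 3 series, and by more than 1 on the log2 scale 59 rose and 90 fell. The 3 Bcl11b+ libraries lay wholly above or wholly below the 3 Bcl11b- libraries for 571 genes (4.71%), 387 of them lower, and 251 of the 682 were among them; groups can overlap through the level of a kit even where every series moved the same way. Without the series as a block, 338 of the 682 genes passed. With either library of the second series left out, 1.74% of genes passed. Leaving out 1 of these libraries removes its whole pair from the fit. The ETP libraries of that series are of a population (total ETP) found in no other series. Both fits therefore give the same calls. With the first-series Bcl11b- library left out 404 genes passed, and with the SMART-Seq Bcl11b+ library left out 437. The median difference over all genes tested was -0.04. Counts for the gene lists below are to be read beside the shares of 2.58% and 3.05%. The lists were chosen with earlier results of these data known, and their counts carry no test.

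**Figure D1:**
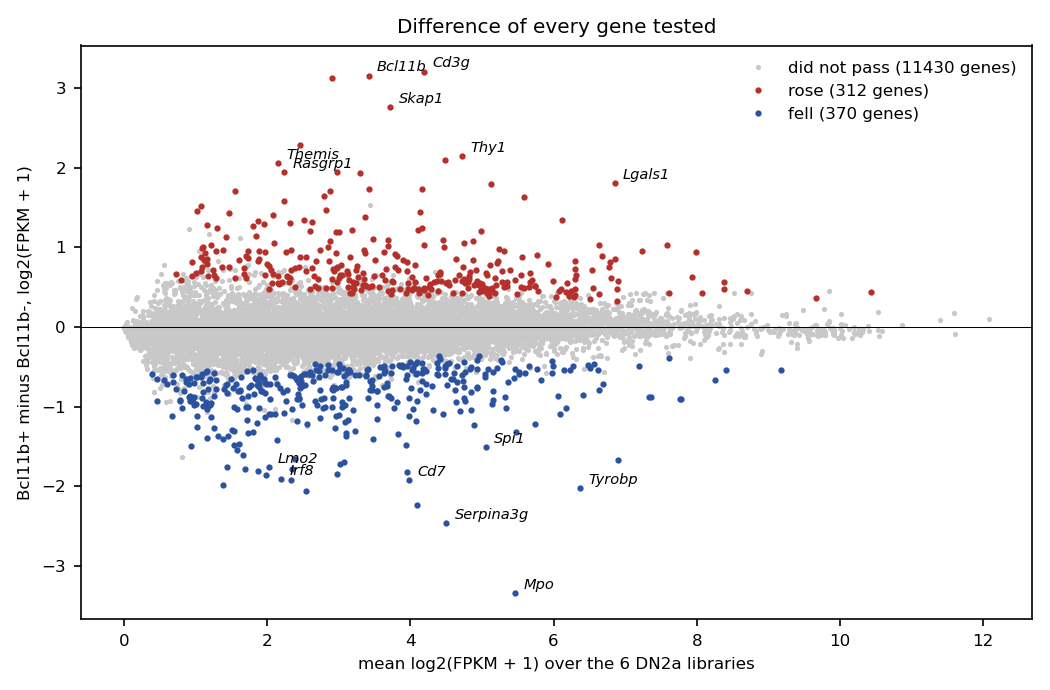
Each point is 1 of the 12112 genes tested, with the mean level over the 6 DN2a libraries on the horizontal axis (log2(FPKM + 1)) and the difference between Bcl11b+ and Bcl11b- cells on the vertical axis (log2(FPKM + 1)). Genes that rose are red, genes that fell are blue and the rest are grey; Bcl11b (3.15) and Skap1 (2.76) are near the top, and Mpo (-3.34) is the lowest point.

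The gate genes matched the labels. Bcl11b itself (mm10 chr12:107910403-108003414, minus strand) stood at 6.11, 3.08 and 0.596 FPKM in Bcl11b- cells and at 41, 44.3 and 16.1 FPKM in Bcl11b+ cells, a difference of 3.15 ± 0.22 (SE). The cells were sorted on the reporter of this gene, so its rise was fixed in advance and its test carries no weight. It is still counted among the 312 genes that rose. The groups did not overlap, and the first-series Bcl11b- library held the most Bcl11b RNA of its group. Il2ra, which encodes CD25, was at 253, 220.7 and 183.6 FPKM without the reporter and at 275, 301 and 220.1 FPKM with it, against 1.02 to 18.4 FPKM in the 6 ETP libraries sorted without CD25. Il2ra was higher in the Bcl11b+ library of each series, but its difference of 0.27 ± 0.41 did not pass (adjusted p = 0.86). That SE includes the spread of Il2ra among the ETP libraries and is not the spread of the 3 series differences alone. Kit, the stem cell factor receptor used in the gate, fell by 0.67 ± 0.13 (adjusted p = 0.0095), from 88.9, 121.3 and 31.8 FPKM to 54.4, 71.1 and 21.7 FPKM; it was lower in the Bcl11b+ library of each series, but the groups overlapped, with both SMART-Seq libraries lowest, and without the block its adjusted p was 0.14. Cd44 differed by -0.43 ± 0.13 and did not pass (adjusted p = 0.081).

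**Figure D2:**
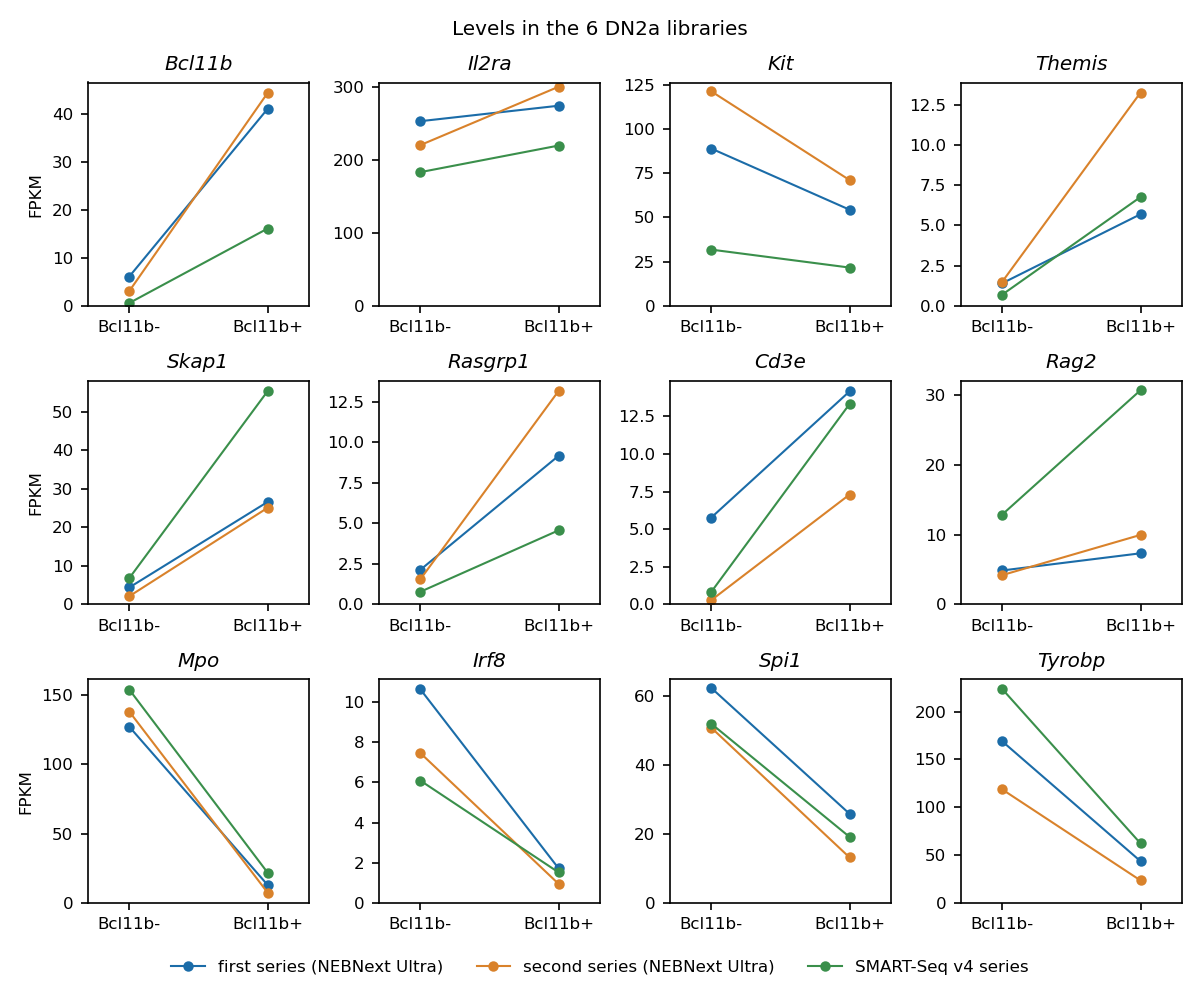
FPKM of 12 genes (vertical axis, starting at 0) in Bcl11b- and Bcl11b+ DN2a libraries; each line joins the 2 libraries of a series. All 3 lines rise for Bcl11b, Themis, Skap1, Rasgrp1, Cd3e and Rag2, and all 3 fall for Kit, Mpo, Irf8, Spi1 and Tyrobp.

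Genes of the T-cell receptor and its assembly rose. Of 14 tested genes for receptor chains, CD3 subunits and recombination, 7 rose and none fell, and the list's median difference was 0.91, against -0.04 over all genes tested. Cd247, which encodes the zeta chain, was at 12.4, 12.3 and 7.78 FPKM in Bcl11b- cells and 34.3, 28.3 and 19.1 FPKM in Bcl11b+ cells (difference 1.24 ± 0.16, adjusted p = 0.00073). Its groups did not overlap. Dntt, whose product terminal deoxynucleotidyl transferase adds bases at receptor gene joints, went from 125.9, 174.2 and 109.3 to 280, 347 and 209.1 FPKM (1.02 ± 0.11, adjusted p = 0.00016), also without overlap. Rag2, a subunit of the recombinase, went from 4.85, 4.19 and 12.9 to 7.32, 9.95 and 30.7 FPKM (0.93 ± 0.14), higher in each series with groups that overlapped. Lig4, the ligase that closes the broken ends, was among the largest rises of all (1.41 ± 0.16), from 1.66, 2.25 and 1.03 to 5.49, 9.20 and 3.93 FPKM.

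The CD3 genes showed the widest spread between series. Cd3g stood at 19.8, 0.801 and 4.77 FPKM without the reporter and at 51.1, 34.5 and 90.6 FPKM with it. Cd3e stood at 5.77, 0.275 and 0.824 FPKM without it and at 14.2, 7.30 and 13.3 FPKM with it. In both genes the groups did not overlap, and the first-series Bcl11b- library was far above the other 2 of its group. The differences were 3.20 ± 0.70 for Cd3g and 2.28 ± 0.45 for Cd3e (adjusted p = 0.018 and 0.01), and neither passed without the block (adjusted p = 0.17 for each). Thy1, the surface marker of T cells, was at 33.7, 13.6 and 2.93 FPKM against 129.6, 92.8 and 13 FPKM (2.14 ± 0.19), higher in each series with groups that overlapped. Cd3d, the third CD3 subunit gene, stood at 3.76, 0.254 and 0.530 FPKM against 5.00, 1.66 and 4.77 FPKM and did not pass (1.11 ± 0.40, adjusted p = 0.16). Without the block 4 of the 14 genes passed, all higher, and with 1 DN2a library left out in turn 3 to 9 did, fewest (3) without either library of the second series.

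Downstream of the receptor, 8 of 32 tested signalling genes rose (25%, against 2.58% of all genes tested) and none fell. Without the block 7 rose and none fell, and 6 to 9 rose with 1 library left out. The list's median was 0.16. Skap1, an adaptor that links the receptor to integrin adhesion, went from 4.38, 2.10 and 6.81 to 26.6, 25.1 and 55.4 FPKM, a rise of 2.76 ± 0.17 (adjusted p = 2.4e-06). Themis, a protein of thymocyte selection, went from 1.41, 1.5 and 0.699 to 5.70, 13.3 and 6.77 FPKM (2.06 ± 0.29). Rasgrp1, which activates Ras on receptor signals, went from 2.13, 1.54 and 0.773 to 9.16, 13.2 and 4.57 FPKM (1.94 ± 0.18). In these 3 genes every Bcl11b+ library was above every Bcl11b- library. Nck2, an adaptor that binds CD3, rose by 1.73 ± 0.11. The most highly expressed members that did not pass were Ptprc (CD45), Grb2 and Csk, with differences of -0.06, 0.12 and -0.28.

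Among regulators of the T lineage, 4 of 22 tested genes rose (18.2%, against 2.58% of all genes tested) and none fell, with and without the block. One of them is Bcl11b, which the gate selects. Ets1 went from 14.4, 11.9 and 6.31 to 29.5, 35.4 and 15.7 FPKM (1.22 ± 0.12, adjusted p = 7.8e-05), without overlap. Tcf12, which encodes the E protein HEB, rose by 0.85 ± 0.13, and Gfi1, a repressor, by 0.65 ± 0.13, each with groups that overlapped. Tcf7 and Gata3, which are known to act before Bcl11b, did not pass. Tcf7 (TCF1) was at 303, 309 and 142.5 FPKM in Bcl11b- cells and 311, 309 and 144.2 FPKM in Bcl11b+ cells, a difference of 0.02 ± 0.08, the smallest SE among the members of this list. Gata3 stood at 14.7, 11.7 and 11.5 against 17.8, 18.4 and 13.6 FPKM (0.37 ± 0.18, adjusted p = 0.36), higher in each series and overlapping. Runx1, Runx3, Tcf3 and Ikzf1 differed by 0.22, -0.34, -0.03 and 0.02.

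The progenitor regulators moved the other way, with 12 of 28 tested genes lower, none higher and a median of -0.51. Without the block 10 fell, and 8 to 11 fell with 1 DN2a library left out, fewest without either library of the second series. Irf8, a factor of the myeloid and dendritic lineages, went from 10.6, 7.47 and 6.09 to 1.72, 0.945 and 1.52 FPKM (-1.91 ± 0.14, adjusted p = 1.4e-05). Spi1 went from 62.4, 50.8 and 52 to 25.8, 13.2 and 19.1 FPKM (-1.50 ± 0.13, adjusted p = 5.2e-05). Both genes were lower in every Bcl11b+ library than in any Bcl11b- library, and Spi1 RNA was still above 13 FPKM after the fall. Lmo2 (-1.76 ± 0.21), Mef2c (-1.19 ± 0.16) and Bcl11a (-1.12 ± 0.12) fell without overlap. Gfi1b (-1.48), Hhex (-1.01), Meis1 (-0.93), Hoxa9 (-0.85), Mycn (-0.69), Tal1 (-0.63) and Id2 (-0.54) were the others that fell.

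Several progenitor regulators did not pass. Erg was at 32.9, 30.5 and 2.94 FPKM in Bcl11b- cells and at 31.5, 32.7 and 2.52 FPKM in Bcl11b+ cells (-0.04 ± 0.16). Lyl1 differed by -0.30 ± 0.12, Nfe2 by -0.20 ± 0.11 and Etv6 by -0.19 ± 0.14. Myb was higher in each series by 0.36 ± 0.11 (adjusted p = 0.085).

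**Figure D3:**
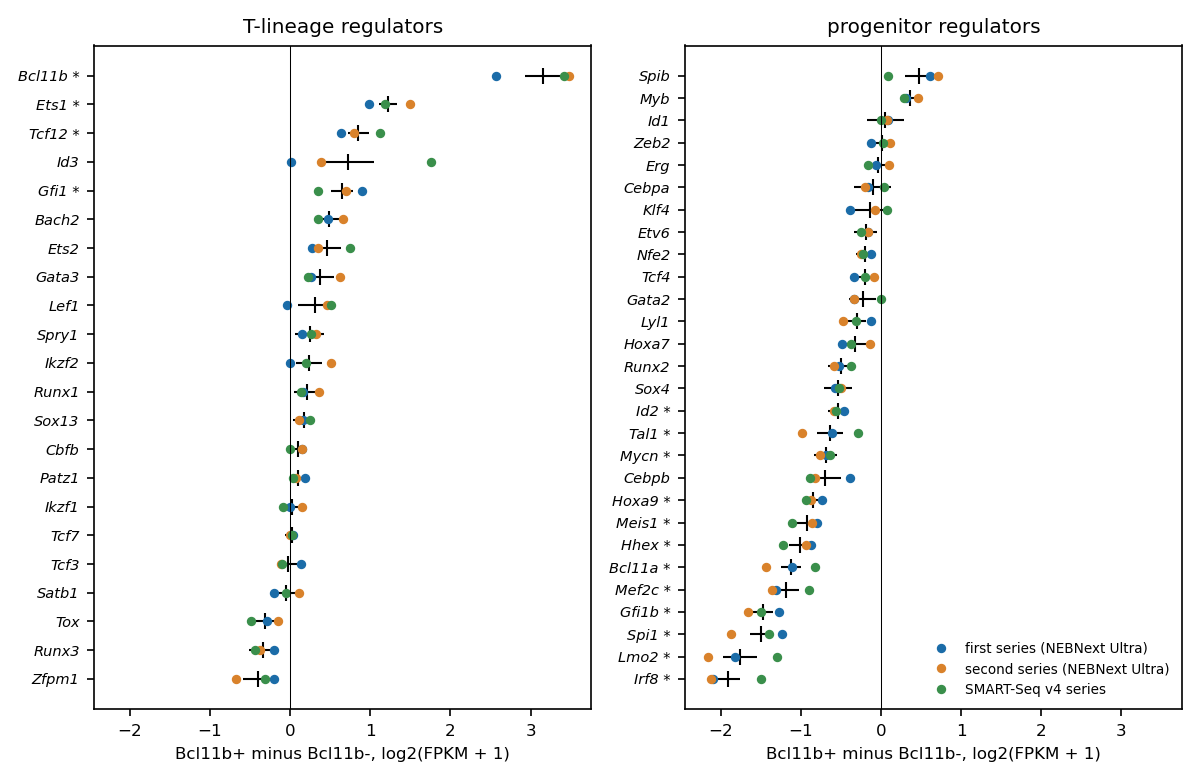
Differences between Bcl11b+ and Bcl11b- cells (horizontal axis, log2(FPKM + 1)) for the T-lineage and progenitor regulators tested; coloured points are the 3 series, the black tick and bar are the mean difference ± SE, and an asterisk marks a gene that passed the test. Bcl11b, Ets1, Tcf12 and Gfi1 carry asterisks on the left, and the 12 progenitor regulators with asterisks all lie below 0.

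The receptor adaptors that carry an ITAM, the tyrosine motif through which immune receptors signal, split between T-cell and myeloid members. Of 15 tested adaptors and associated receptors 3 rose, all of them CD3 or zeta chains (Cd247, Cd3e and Cd3g), and 3 fell (1 and 2 without the block, and without either library of the second series). Tyrobp, which encodes the adaptor DAP12 of myeloid and natural killer receptors, went from 168.98, 118.6 and 223.7 to 43.5, 23.4 and 62.2 FPKM (-2.02 ± 0.11, adjusted p = 2e-06), without overlap. Fcgr3, an Fc receptor, went from 2.39, 3.93 and 11.9 to 0.388, 0.364 and 1.83 FPKM (-1.78 ± 0.18). Fcer1g, the common Fc receptor gamma chain, went from 29, 27.4 and 93.7 to 18, 17.6 and 69.3 FPKM (-0.57 ± 0.13, adjusted p = 0.027), and its adjusted p without the block was 0.079. Hcst (DAP10, an adaptor of the list without an ITAM) and Cd79b did not pass, with differences of 0.29 and -0.02.

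Several genes known from granulocytes and monocytes fell in Bcl11b+ cells. Of 16 tested markers 6 fell and none rose, with a median of -0.47, and the summed level of the list was 183.7 to 252.2 FPKM in the Bcl11b- libraries and 29.1 to 78.1 FPKM in the Bcl11b+ libraries. Mpo alone made up most of the sum in each Bcl11b- library, so the drop of the sum is largely that of this gene. Of the 20 markers listed, 10 were under 1 FPKM in all 6 libraries. Mpo, encoding the myeloperoxidase of neutrophil granules, had the largest fall of any named gene, from 127.2, 138.1 and 153.99 to 12.9, 7.4 and 21.8 FPKM (-3.34 ± 0.18, adjusted p = 2e-06). Ctsg, encoding the granule protease cathepsin G, went from 8.28, 12.5 and 25.3 to 1.68, 1.98 and 7.95 FPKM (-1.84 ± 0.30). Cd33, a sialic-acid-binding receptor of myeloid cells, went from 9.09, 10.7 and 6.03 to 1.44, 2.02 and 1.79 FPKM (-1.78 ± 0.14). In all 3 genes the groups did not overlap. Lyz2, Ly6c2 and Prtn3, the most highly expressed markers that did not pass, differed by -0.20, 0.03 and -0.78. In bulk libraries, fewer cells of a type and less RNA per cell cannot be told apart, and the part of other cells in the falls of Spi1, Irf8, Tyrobp and Mpo was not tested.

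Markers of other cells that the gate could let through were low in several lists, but not in the natural killer and innate lymphoid list. Of the macrophage and dendritic cell markers 12 of 20 were under 1 FPKM in all 6 libraries, and their sum was 24.2 to 48.5 FPKM in Bcl11b- and 18.8 to 30.2 FPKM in Bcl11b+ cells; of the 9 tested, Flt3 fell, though not without the block. The natural killer and innate lymphoid list summed to 112.01 to 515.5 FPKM in Bcl11b- and 105.4 to 480.8 FPKM in Bcl11b+ cells, with Ncr1 and Klre1 at 0 in all 6 libraries, and 3 of its 10 tested genes fell (Cd160, Ccl5 and Id2; 1 without the block, and without either library of the second series). For B cells the sums were 20.4 to 51.9 and 21.4 to 49.2 FPKM, with Pax5 and Ms4a1 at 0, and of the 6 tested genes only Pou2af1, a transcriptional coactivator, passed (1.43 ± 0.23, higher). Markers of later thymocytes and mature T cells summed to 20.4 to 47.2 and 32.6 to 55.1 FPKM, with Il17a at 0, and 2 of 15 tested genes, Themis and Klf2, rose, Klf2 neither without the block nor with any 1 DN2a library left out. Thymic stroma and endothelium markers summed to 8.08 to 56.3 and 9.62 to 37.4 FPKM, with Emcn at 0, and 1 of 6 tested genes, Pdgfrb, fell (-0.65 ± 0.11), though not without either library of the second series.

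The list for the erythroid, megakaryocyte and mast cell lineages held genes of both directions. It was not low, with sums of 492.1 to 1223.2 FPKM in Bcl11b- and 424.1 to 1301.2 FPKM in Bcl11b+ libraries. Of 12 tested genes 5 fell and 1 rose (3 and 1 without the block, and without either library of the second series). Cpa3, encoding a mast cell carboxypeptidase, went from 98.7, 126.8 and 482 to 176.3, 271 and 893 FPKM (0.94 ± 0.13), higher in each series. Mcpt8, a basophil protease gene, went from 1.95, 4.14 and 20.4 to 0.224, 0.248 and 3.99 FPKM (-1.80 ± 0.24), and Car2, encoding carbonic anhydrase, from 12.5, 22.3 and 76.6 to 4.08, 3.97 and 20.8 FPKM (-1.82 ± 0.13). The globin gene Hbb-bt was at 392, 181.5 and 371 FPKM without the reporter and 224.9, 81.3 and 218.7 FPKM with it (-0.90 ± 0.14). Its adjusted p without the block was 0.40, and reads of the near-identical beta-globin genes could be split between copies, so the value is uncertain. Fcer1a, a defining gene of mast cells, was at 0 in all 6 libraries.

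Among cytokine receptors 3 of 34 tested genes were higher (8.82%) and 6 lower (17.6%), against 2.58% and 3.05% over all genes tested. Without either library of the second series 2 were higher and 1 was lower. Il7r, the receptor chain through which IL-7 supports early thymocytes, went from 20.3, 21.5 and 17.8 to 35.2, 59.2 and 49.9 FPKM (1.21 ± 0.15, adjusted p = 0.00044), without overlap. Ifngr1, a chain of the interferon-gamma receptor, rose by 0.81 ± 0.12. Il1r1 (-1.47 ± 0.22), Csf1r (-1.12 ± 0.19), Flt3 (-0.94 ± 0.20) and Kit fell, and Csf1r RNA was at 0.266, 0 and 0.012 FPKM in the Bcl11b+ libraries. Of 11 STAT5 targets and feedback genes 2 rose and 1 fell (1 and none without either library of the second series, 2 and none without the block). Bcl2, a survival gene downstream of IL-7, went from 5.34, 5.10 and 5.74 to 13.3, 14.4 and 19.9 FPKM (1.38 ± 0.14), and the feedback inhibitor Socs2 rose by 1.19 ± 0.21. Of 21 genes of survival and cell death, Bcl2 rose and 3 fell (Fasl by 1.31, Bbc3 by 0.71 and Bid by 0.47). Bcl2 alone rose in every fit with 1 DN2a library left out, while 1 or 2 of the list fell, and without the block 1 fell; Bbc3 and Bid did not pass without the block (adjusted p = 0.084 and 0.07).

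Notch response genes did not move together. Of 16 tested, Notch3 rose (0.64 ± 0.17) and Nrarp and Dtx1 fell. These calls are 6.25% and 12.5% of the list, against 2.58% and 3.05% over all genes tested. Nrarp, a feedback inhibitor of Notch, went from 18.1, 20.3 and 12 to 9.38, 9.40 and 7.06 FPKM (-0.87 ± 0.13), without overlap, and also fell without the block (adjusted p = 0.0055). Notch3 and Dtx1 did not pass without it (adjusted p = 0.38 and 0.075), and with the Bcl11b- library of any series, or the second-series Bcl11b+ library, left out no gene of the list rose. Myc, a Notch target in these cells, differed by -0.34 (adjusted p = 0.095).

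Among adhesion, homing and surface genes more fell than rose. Of 35 tested migration and adhesion genes 10 fell (28.6%) and 2 rose (5.71%), against 3.05% and 2.58% over all genes tested. Without the block 8 fell and none rose. With 1 DN2a library left out 4 to 12 fell and none rose. Without either library of the second series 4 fell, and without the first-series Bcl11b- library 6 fell. Spns2, a transporter of sphingosine-1-phosphate, went from 42.8, 48.5 and 22.2 to 8.40, 7.57 and 4.95 FPKM (-2.24 ± 0.13, adjusted p = 2e-06). Cd34, the stem cell sialomucin, went from 56.2, 79.7 and 74.7 to 23.4, 27 and 32.1 FPKM (-1.32 ± 0.11). Neither gene's groups overlapped. The tetraspanin genes Cd81 (-0.95) and Cd9 (-0.89) fell with groups that overlapped. Among 22 surface markers of the stages 6 fell (27.3%) and 4 rose (18.2%). Without the block, and without either library of the second series, 5 fell and 2 rose. Cd7 went from 25.2, 18.7 and 56.4 to 5.68, 4.16 and 14.7 FPKM (-1.93 ± 0.12), and Slamf6, a SLAM-family receptor, from 2.70, 1.65 and 5.13 to 6.99, 8.67 and 23 FPKM (1.65 ± 0.17).

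Many cell cycle genes rose. In S phase 11 of 24 tested genes rose and none fell (median 0.39), and in G2 and M phase 16 of 24 rose and none fell (median 0.54). Without the block the counts were 5 and 7. With either library of the second series left out, which removes that pair, only 1 S phase gene and 2 G2 and M phase genes passed. With 1 of the other 4 libraries left out 4 to 8 and 9 to 13 did. The counts were 4 and 10 without the first-series Bcl11b+ library and 6 and 9 without the SMART-Seq Bcl11b- library. Birc5, encoding survivin, went from 34.9, 36.3 and 172.2 to 67.2, 60.5 and 249 FPKM (0.73 ± 0.10, adjusted p = 0.0012). Rrm2, a subunit of ribonucleotide reductase, went from 53.9, 54 and 192.99 to 92.9, 108.1 and 308 FPKM (0.81 ± 0.11). Both were higher in each series, and their groups overlapped, with both SMART-Seq libraries highest. The size of the rise differed among genes, since the replication licensing genes Mcm3, Mcm6 and Mcm7 differed by 0.16 to 0.23 and did not pass. In G1, Ccnd3, the D cyclin of early thymocytes, went from 75.8, 69 and 61.5 to 162.7, 139.3 and 123.8 FPKM (1.03 ± 0.10, adjusted p = 0.00013) and E2f2 rose by 1.2 ± 0.17, while Ccnd1 fell by 0.98 ± 0.16, a call lost without either library of the second series. Cdk4 and Cdk6 differed by -0.01 and -0.02.

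**Figure D4:**
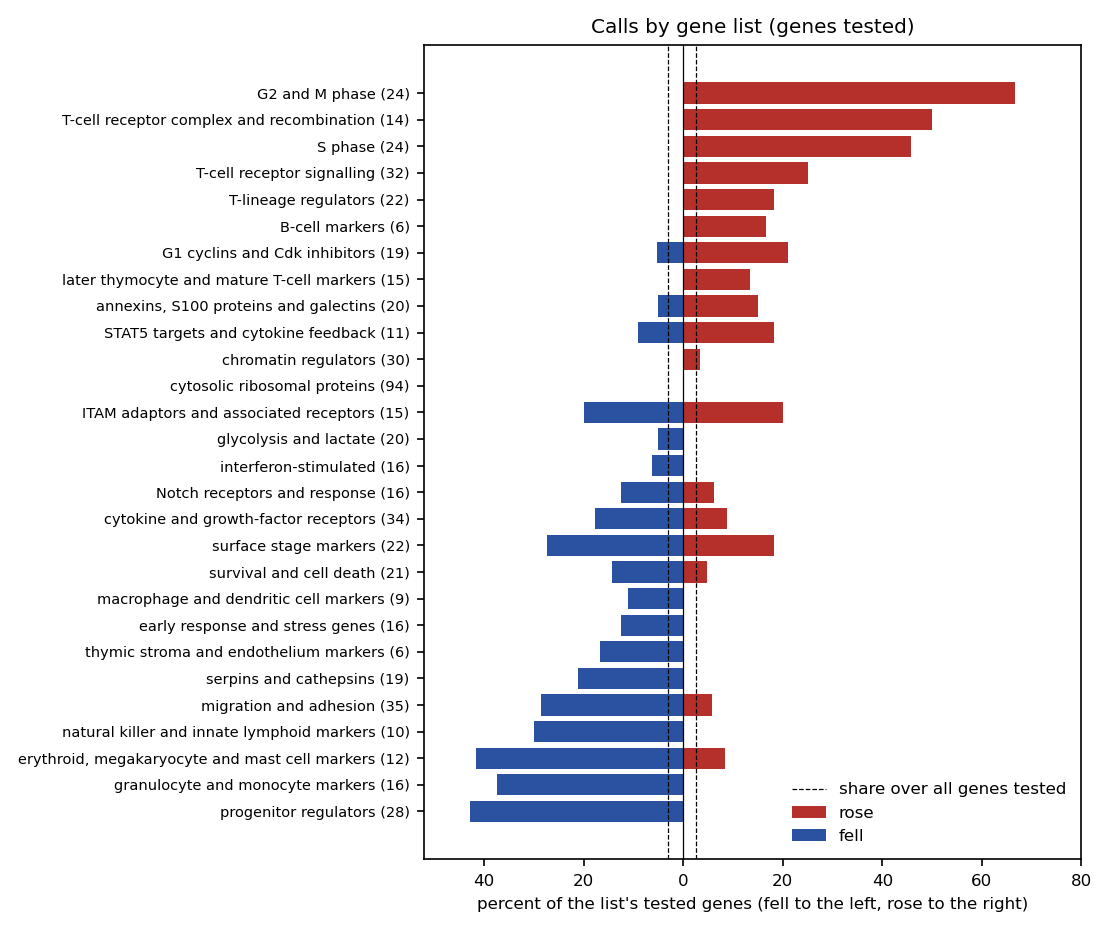
Percent of each list's tested genes (number in parentheses) that rose, to the right, or fell, to the left, in Bcl11b+ against Bcl11b- DN2a cells; dashed lines mark the shares over all genes tested (2.58% and 3.05%). G2 and M phase (16 of 24) reaches farthest to the right and progenitor regulators (12 of 28) farthest to the left. The lists were chosen with earlier results of these data known, and the shares carry no test.

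Other lists held few changes. None of 94 tested ribosomal protein genes passed in the paired limma fit, and none did in edgeR or without the block; the list's median was -0.06. Of 30 chromatin regulators Hmgb2 rose (0.57 ± 0.09), also without the block, a share of 3.33% that is near the 2.58% over all genes tested. Of 20 glycolytic genes Aldoa fell (-0.39 ± 0.10), of 16 interferon-stimulated genes Ifi44 fell (-0.67 ± 0.15), and of 16 early response and stress genes Junb (-0.69) and Zfp36 (-0.60) fell. None of these 4 falls passed without the block (adjusted p = 0.29, 0.096, 0.23 and 0.11), and the first 2 passed with 1 DN2a library left out only where that was the SMART-Seq Bcl11b- library. In the early response list 2 genes fell without the SMART-Seq Bcl11b+ library and 1 without the first-series Bcl11b- library. None fell in the other fits with 1 library left out. Among 20 annexins, S100 proteins and galectins 3 rose (15%) and 1 fell (5%), and without the block 3 rose and none fell. Lgals1, encoding galectin-1, went from 88.6, 40.4 and 62.3 to 297, 171.8 and 195.5 FPKM (1.81 ± 0.10, adjusted p = 2e-06), and Anxa2 rose by 1.34 ± 0.21. Of 19 serpins and cathepsins 4 fell (21.1%). Serpina3g, a protease inhibitor, went from 36.3, 39.4 and 98.6 to 4.71, 5.16 and 24.6 FPKM (-2.46 ± 0.15), and the neighbouring family member Serpina3f fell by 1.86 ± 0.18; the 2 are close paralogues, so reads could be split between them.

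Some of the largest changes lay outside these lists. Ccdc109b, which encodes a subunit of the mitochondrial calcium channel, went from 2.81, 0.535 and 1.83 to 15.7, 14.8 and 40.7 FPKM (3.13 ± 0.40, adjusted p = 0.00064). Fam169b rose by 2.09 ± 0.27, Esm1, an endothelial proteoglycan gene, by 1.94 ± 0.20, and Colq by 1.58 ± 0.16. The guanylate-binding protein genes Gbp4 (1.95 ± 0.34), Gbp8 (1.73 ± 0.33) and Gbp6 (1.47 ± 0.20) rose as well, with the caution that members of this family share sequence. P2rx1, encoding an ATP-gated channel, went from 11.3, 10.0 and 11.5 to 1.51, 1.47 and 2.79 FPKM (-2.06 ± 0.15). Slc35d3 (-1.92), Ffar2 (-1.72), Neurl3 (-1.70), Ifitm1 (-1.67) and Lag3 (-1.65) fell by similar amounts.

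Levels in the ETP libraries show where the 2 DN2a groups sit beside the earlier stage; they are given as levels with no test. P2rx1 was at 0.751 to 3.54 FPKM in the 6 ETP libraries, so that the Bcl11b- DN2a libraries at 10.0 to 11.5 FPKM held the highest levels of the 3 populations. Dntt was at 347 to 531 FPKM in ETP, the low end of which equalled the highest Bcl11b+ DN2a library to 3 digits, and was lowest in Bcl11b- DN2a cells. Lmo2 was at 28.8 to 69.4 FPKM in ETP, 5.21 to 7.97 FPKM in Bcl11b- and 1.00 to 1.52 FPKM in Bcl11b+ DN2a cells, a descent over the 3 populations, whereas Tyrobp, at 94.4 to 271 FPKM in ETP, overlapped the Bcl11b- DN2a libraries. Fam169b, at 0.649 to 7.07 FPKM in ETP, ascended over the same order. Spi1 was at 30.7 to 77 FPKM in ETP and overlapped the Bcl11b- but not the Bcl11b+ libraries.

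Dependence on the kit could hardly be tested, because the SMART-Seq arm is a single pair of libraries set against 2 NEBNext pairs, and the test says nothing about whether the differences are the same in both kits. With an interaction term for SMART-Seq against NEBNext, none of 12112 genes passed in limma, with a smallest adjusted p of 0.896; 1.75% of all genes had an unadjusted p under 0.05, as had 37 of the 682 genes that changed. With the NEBNext libraries alone 842 genes passed, 591 of them among the 682. The gene with the smallest p was Id3, at 2.97, 0.118 and 0.215 FPKM without the reporter and 2.99, 0.462 and 3.12 FPKM with it.

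Promoter sequence is shown for 3 of the largest rises and 3 of the largest falls whose roles are described above, to let the motif counts be read on real windows. Each is the 250 bases before the annotated start in RefSeq (GRCm38.p6), 5′ to 3′ on the gene's strand: Bcl11b at chr12:108003415-108003664 (minus strand), Themis at chr10:28668110-28668359 (plus), Rasgrp1 at chr2:117342878-117343127 (minus), Mpo at chr11:87793534-87793783 (plus), Irf8 at chr8:120736108-120736357 (plus) and Ctsg at chr14:56102575-56102824 (minus). Capitals mark GAGGAA on either strand (TTCCTC as printed), a purine-rich core that PU.1 is known to bind.
Bcl11b: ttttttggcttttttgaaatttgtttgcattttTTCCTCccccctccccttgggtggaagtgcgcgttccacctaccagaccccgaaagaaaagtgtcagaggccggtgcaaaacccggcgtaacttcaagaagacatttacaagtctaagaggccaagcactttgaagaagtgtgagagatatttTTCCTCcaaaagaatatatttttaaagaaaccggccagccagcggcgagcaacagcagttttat
Themis: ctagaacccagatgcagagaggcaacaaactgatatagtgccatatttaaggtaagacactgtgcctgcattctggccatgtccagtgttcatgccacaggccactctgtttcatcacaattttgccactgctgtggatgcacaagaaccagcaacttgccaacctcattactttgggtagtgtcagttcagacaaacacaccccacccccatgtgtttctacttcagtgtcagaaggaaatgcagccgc
Rasgrp1: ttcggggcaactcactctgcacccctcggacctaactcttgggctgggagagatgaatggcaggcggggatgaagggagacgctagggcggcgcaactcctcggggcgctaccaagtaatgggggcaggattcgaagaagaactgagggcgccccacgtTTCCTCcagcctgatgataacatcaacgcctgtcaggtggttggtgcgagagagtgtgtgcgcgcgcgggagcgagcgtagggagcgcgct
Mpo: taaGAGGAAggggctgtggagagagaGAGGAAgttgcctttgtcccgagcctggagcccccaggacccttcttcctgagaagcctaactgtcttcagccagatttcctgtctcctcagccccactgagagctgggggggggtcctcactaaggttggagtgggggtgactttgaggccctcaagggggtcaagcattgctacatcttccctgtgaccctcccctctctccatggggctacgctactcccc
Irf8: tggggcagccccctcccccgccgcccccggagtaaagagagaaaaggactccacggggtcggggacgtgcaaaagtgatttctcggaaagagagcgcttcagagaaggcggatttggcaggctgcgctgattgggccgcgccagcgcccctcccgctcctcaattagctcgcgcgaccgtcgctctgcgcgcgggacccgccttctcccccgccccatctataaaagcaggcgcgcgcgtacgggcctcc
Ctsg: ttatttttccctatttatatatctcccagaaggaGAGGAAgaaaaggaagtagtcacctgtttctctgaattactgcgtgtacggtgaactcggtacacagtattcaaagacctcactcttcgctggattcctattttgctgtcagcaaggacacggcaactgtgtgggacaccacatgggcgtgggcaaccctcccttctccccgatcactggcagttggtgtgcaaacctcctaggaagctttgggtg

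The letters GAGGAA occurred, on either strand, in 28.9% of 387 windows of genes that fell and 19.6% of 296 windows of genes that rose, against 22.4% of the 11596 windows of all genes tested. The core CCGGAAG, typical of Ets sites at broadly used promoters, was in 6.2% and 10.8% of the same windows, against 14.1%. The Runx core TGTGGT was in 16% and 12.8%, against 11.2%, the E-box CAGCTG in 13.4% and 13.5%, against 11.4%, and the Gata core AGATAA in 9.56% and 9.46%, against 6.21%. The 5 motifs share no full match with each other, although GAGGAA and CCGGAAG both hold GGAA. Of the windows printed, Bcl11b and Mpo held 2 GAGGAA matches each, Rasgrp1 and Ctsg 1 each, and Themis and Irf8 none. Mean GC content was 57.3% in the windows of genes that fell, 58.3% in those that rose and 59.6% over all, and windows of a gene with several starts overlap. These are counts of letters, with no test.

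The droplet libraries gave a related comparison, in cells split by detected RNA and not sorted for the reporter. These cells need not be the ones that the bulk gates hold. They came from wild-type C57BL/6 thymus cells gated as lineage-negative, 7AAD-negative, CD44+ and Kit+, with no gate on CD25. Of 5006 and 8867 barcodes, 4878 and 8434 cells were kept, and 55 barcode sequences occurred in both libraries. Cells with an Il2ra UMI (a counted RNA molecule) were split by whether they held a Bcl11b UMI. There were 1197 and 1933 cells with both, at median depths of 9002 and 6771 UMIs, and 1450 and 2088 with Il2ra alone, at 8513.5 and 6568.5 UMIs. A cell without a Bcl11b UMI may still express the gene, doublets were not removed, and cells of 1 library are not replicates, so the sums are given per library with no test.

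Of the genes that rose in bulk, 275 had at least 20 UMIs in each class of each library, and 267 of them were higher in both libraries in the cells with Bcl11b, against 43.3% of all 9573 genes compared. Of the genes that fell in bulk, 290 were compared and 285 were lower in both libraries, against 29.3% over all genes. CPM are UMIs scaled to the same total in each class, and the median log2 ratio of CPM was 0.76 and 0.63 for the genes that rose, -0.75 and -0.68 for those that fell, and 0.04 and 0.03 over all. Only Tpm4 and Vim rose in bulk and were lower in both droplet libraries, and only Arhgef10l, Dhrs3 and Dtx1 fell in bulk and were higher in both; these 5 are named for that and not by the naming rule.

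Mpo was at 130.99 and 116.4 CPM in cells without a Bcl11b UMI and at 22.3 and 23.7 CPM in cells with it. Spi1 was at 116.7 and 112.9 CPM without and 50.9 and 48.4 CPM with it. Skap1 was at 13.1 and 13.3 CPM without and 81.1 and 86 CPM with it. These followed the bulk directions. Cd3e was at 7.32 and 14.9 CPM without and 155.9 and 159.8 CPM with a Bcl11b UMI. Genes that did not pass in bulk could differ here: Cd3d stood at 13.4 and 19.9 against 224.8 and 259 CPM, and Lef1, a relative of Tcf7, at 2.36 and 5.67 against 35 and 34.5 CPM. The granzyme gene Gzma stood at 7.92 and 11.3 against 93.1 and 82.5 CPM. Gzmb went the other way, at 5.56 and 6.70 against 2.54 and 2.41 CPM. Which cells held the RNA of Cd3d, Lef1 and Gzma was not tested. Tcf7 was at 216.6 and 246 CPM without and 276 and 313 CPM with a Bcl11b UMI, higher by 0.35 on the log2 scale in each library, and Fcer1g, which fell in bulk, differed by -0.03 and -0.29.

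**Figure D5:**
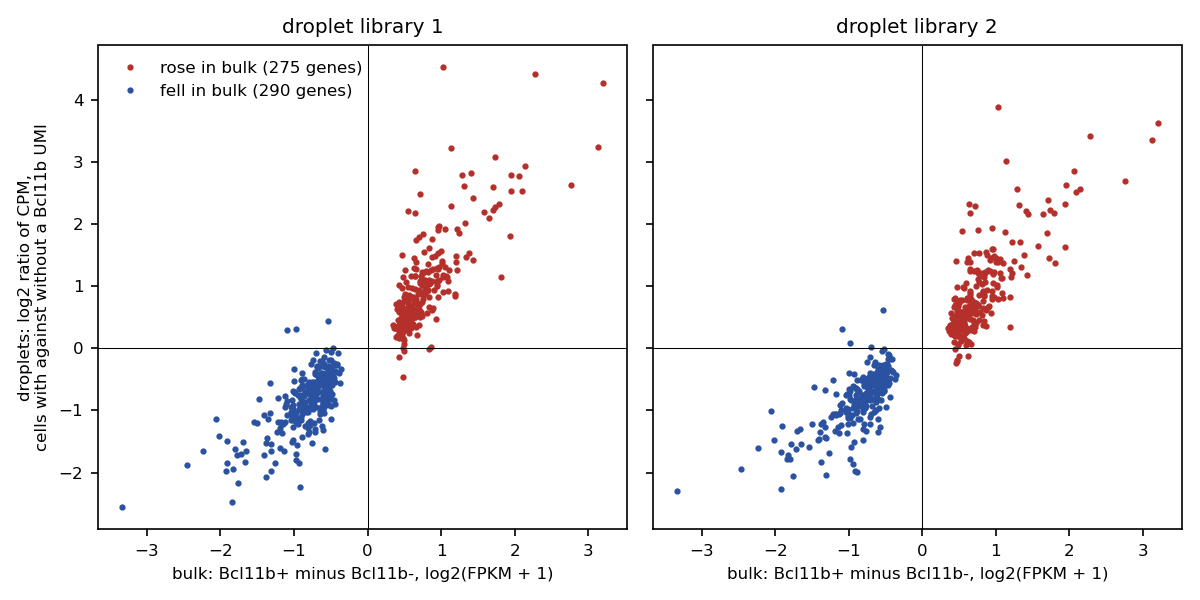
Bulk difference (horizontal axis, log2(FPKM + 1)) against the log2 ratio of CPM between cells with and without a Bcl11b UMI (vertical axis) in each droplet library, for 275 genes that rose (red) and 290 that fell (blue) in bulk. Nearly all red points lie above 0 and nearly all blue points below it.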

How the data were processed

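Bulk values are FPKM deposited by the authors, 1 per RefSeq gene model; per the submitters' processing notes, STAR 2.4.0, RSEM 1.2.25, HOMER and edgeR 3.6.8 were used with mm10 (GRCm38). The droplet matrices hold UMI counts, deposited as made with Cell Ranger 2.0 per the same notes. The C1 cells were not used here. The members and gene lists were chosen with earlier results of these data known.

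The 12112 of 24506 genes above 1 FPKM in 2 or more of the 12 bulk libraries were tested with limma 3.58.1 (R 4.3.3, variance trend) on log2(FPKM + 1), all 12 libraries in a single fit with population and library series as terms, 5 residual degrees of freedom and Benjamini-Hochberg adjustment over all genes. The pairing comes from the library numbers and the kit. Deviations from the group mean correlated across genes by 0.91, 0.93 and 0.98 between the 2 libraries of a series, against -0.87 to 0.55 between series. Whole reads recovered from FPKM and length came out whole within 0.1 read for 91.3% to 98.7% of values and went into edgeR 4.0.16 as an alternative; it called 1061 genes, 655 of them among the 682.

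Named genes were the gate genes, the 15 largest rises and 15 largest falls that passed with and without the block, did not overlap and had a mean log2 value of at least 2 (predicted genes left out), up to 4 called and 3 uncalled per list, all members of 3 lists, and the 5 with the smallest p for kit dependence. Droplet cells had at least 1000 genes and under 10% mitochondrial UMIs. Figures and tables used Python 3.11.15, pandas 2.3.3 and matplotlib 3.10.9.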

Additional observations from a re-analysis of the deposited data

How the results depend on the processing

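No named gene that passed changed sign under any of the 14 alternatives to the paired fit, but only 41 passed under all of them and 62 lost their call under at least 1. The 15 largest rises and 15 largest falls were named only if they also passed without the block. That fit is 1 of the 14, so it could not remove them. Of the genes tested, 5.63% passed in the paired fit, 2.79% without the replicate block (kit as a term, 41.1% of calls higher), 15.2% with the 6 DN2a libraries alone, 8.76% with edgeR on recovered reads, and 0.669% of 24506 genes with no filter on low values (51.2% of calls higher). The share of calls that were higher was 50.9% with quantile normalization, 52.7% with median-ratio scaling and 40.7% with a pseudocount of 0.1, against 45.7% in the paired fit. Leaving out each DN2a library in turn left 1.74% to 4.35% of genes passing, with 38.9% to 48% of calls higher. The lowest share passing came without either library of the second series, where the fit loses the whole pair. It was 3.34% without the first-series Bcl11b- library and 3.61% without the SMART-Seq Bcl11b+ library. These fits hold fewer samples, and for the other settings the cause was not tested. In droplet cells thinned to 4000 UMIs, 94% of the compared genes that fell in bulk were lower in both libraries, against 98.3% unthinned. Depth limits genes at low FPKM most, where a pseudocount of 1 hides part of a change, and 3 libraries a group, of unknown animals, limit the rest.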
